A study of Mus musculus with 12 samples.

Results

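Among 12 single cardiac progenitor cells (CPCs) sequenced from culture, 3 carried the most mRNA of a fixed group of mitotic genes and 3 of the remaining 9 carried the most mRNA of a fixed group of replication genes. The mitotic group held 7 genes (Cdk1, Aurka, Ccnb2, Cenpf, Cenpe, Tpx2 and Top2a) and the replication group held 6 (Mcm2, Mcm4, Mcm5, Mcm6, Pcna and Dtl), and each cell was ranked by their summed CPM (a gene's count divided by the total count of the cell and multiplied by 1000000). The 3 mitotic-high cells were cells 9, 5 and 8, with mitotic sums of 4001, 2726 and 2155 CPM. The 3 replication-high cells were cells 2, 1 and 12, with replication sums of 1829.9, 1733 and 1728 CPM. Just outside the mitotic set, cell 1 had a mitotic sum of 1383 CPM, and just outside the replication set, cell 4 had a replication sum of 342 CPM. These 6 of 12 cells are compared here over the genes that did not choose them, with the other 6 cells (3, 4, 6, 7, 10 and 11) as a further reference.

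The cells belong to a single labelled group. They are c-Kit+ Lin- cells from the non-myocyte fraction of pooled hearts of FVB mice labelled female and 12 weeks old, expanded as adherent CPCs for 5 passages. Each cell was picked by mouth pipette and its full-length cDNA was made with the SMART-Seq v4 kit from polyadenylated RNA. No treatment, genotype or cell cycle label separates the 12 cells. The labels name no animal or culture for a cell, so the 12 cells count as 1 sample, and the sets were drawn from the same counts that are described below. For both reasons no p-value is given, and an error is the SD over the 3 cells of a set.

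Total counts ran from 4770276 to 5500451 in the mitotic-high cells and from 3453708 to 5690184 in the replication-high cells, and the genes with a count ran from 10022 to 11515 and from 10036 to 11950. A count of 0 in 1 of these 6 cells allowed up to 3 counts, that is 0.527 to 0.869 CPM. The mitochondrially encoded share ran from 1.02% to 2.77% and from 1.32% to 2.12%. Kit, the receptor by which the cells were isolated before culture, had no count in any of the 6 cells, whereas the cardiac factor Gata4 was counted in each, at 39.0 to 138 CPM. The libraries also went against the labelled sex: Y-linked genes were counted in each of the 6 cells, with sums of 122 to 267 CPM in the mitotic-high and 164 to 198 CPM in the replication-high cells.

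A dividing cell copies its DNA in S phase and separates the copies in mitosis, and it makes much of the protein for each step shortly before the step begins. Before S phase, E2F factors released from the retinoblastoma proteins switch on cyclin E and the genes for licensing origins, running forks and supplying deoxynucleotides. From late S phase onward, the MuvB complex with B-Myb and FoxM1 switches on cyclin B, the mitotic kinases and the parts of the spindle and kinetochore, through a promoter element called the cell cycle genes homology region (CHR). Ubiquitin ligases then remove many of these proteins in order, the anaphase-promoting complex (APC/C) with its activators Cdc20 and Cdh1 among them.

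**Figure D1:**
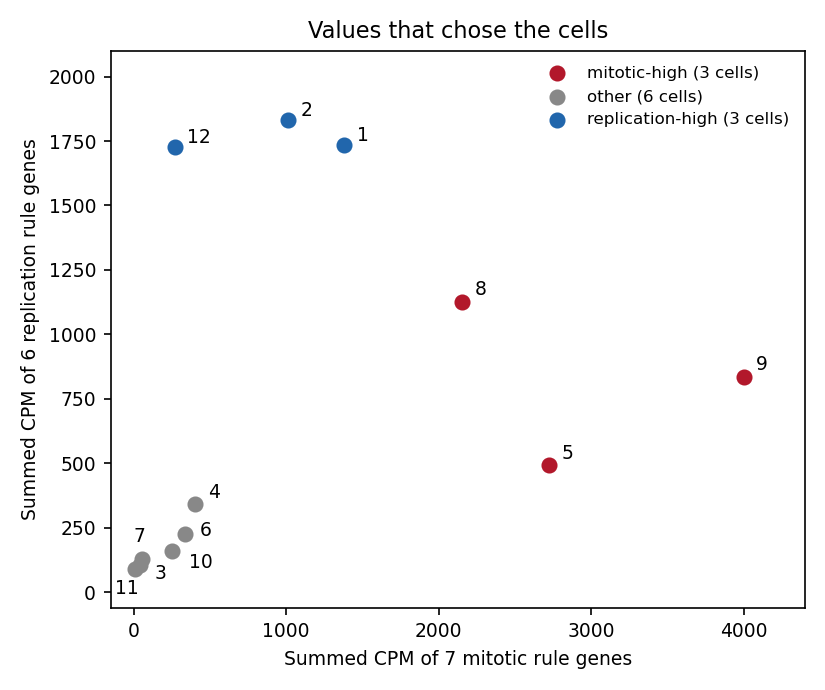
Each point is 1 cell, placed by its summed CPM of the 7 mitotic rule genes (horizontal axis) and of the 6 replication rule genes (vertical axis), on linear scales. Cells 9, 5 and 8 lie to the right with 494 to 1128 CPM of replication mRNA, cells 2, 1 and 12 lie at the top, and cell 12 has a mitotic sum of only 269 CPM.

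The 2 axes did not exclude each other. The mitotic-high cells held replication sums of 837, 494 and 1128 CPM in cells 9, 5 and 8, above the highest of the other 6 cells at 342 CPM. The replication-high cells differed widely on the mitotic axis, with sums of 1014, 1383 and 269 CPM in cells 2, 1 and 12, and cell 12 lay inside the 12.1 to 404 CPM of the other 6 cells. Single rule genes were uneven within a set. Cenpf, a large kinetochore and nuclear matrix protein of G2 and mitosis, was counted at 542, 416 and 21.1 CPM in cells 9, 5 and 8, and Pcna, the sliding clamp of the replication fork, at 156, 183 and 492 CPM in the same cells. Pcna stood at 480.0, 598 and 343 CPM in cells 2, 1 and 12, so that cell 8 lay within the replication-high range for the clamp. These values chose the cells and are given as a description.

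Outside the 13 rule genes, 8324 genes averaged 10 CPM or more over the 6 cells. A gene is called higher in a set below where its mean CPM was at least 2-fold that of the other set and the lowest of the 3 cells lay above the highest of the other 3. Folds are ratios of mean CPM, and values written as 3 CPM against 3 CPM give cells 9, 5 and 8 first and cells 2, 1 and 12 second. By these criteria 253 genes (3.04%) were higher in the mitotic-high and 170 (2.04%) in the replication-high cells. On means alone, 2-fold differences were seen for 574 genes (6.90%) and 513 genes (6.16%). The log2 ratio below is log2 of (mean CPM + 1) in the mitotic-high over (mean CPM + 1) in the replication-high cells, so a negative value is higher in the replication-high cells, and its median over the 8324 genes was 0.08. Leaving out 1 cell makes it easier for sets not to overlap. The first count was then 339 without cell 9, 434 without cell 5, 523 without cell 8, 502 without cell 2, 411 without cell 1 and 365 without cell 12, and the second was 394, 385, 294, 349, 249 and 316 in the same order.

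**Figure D2:**
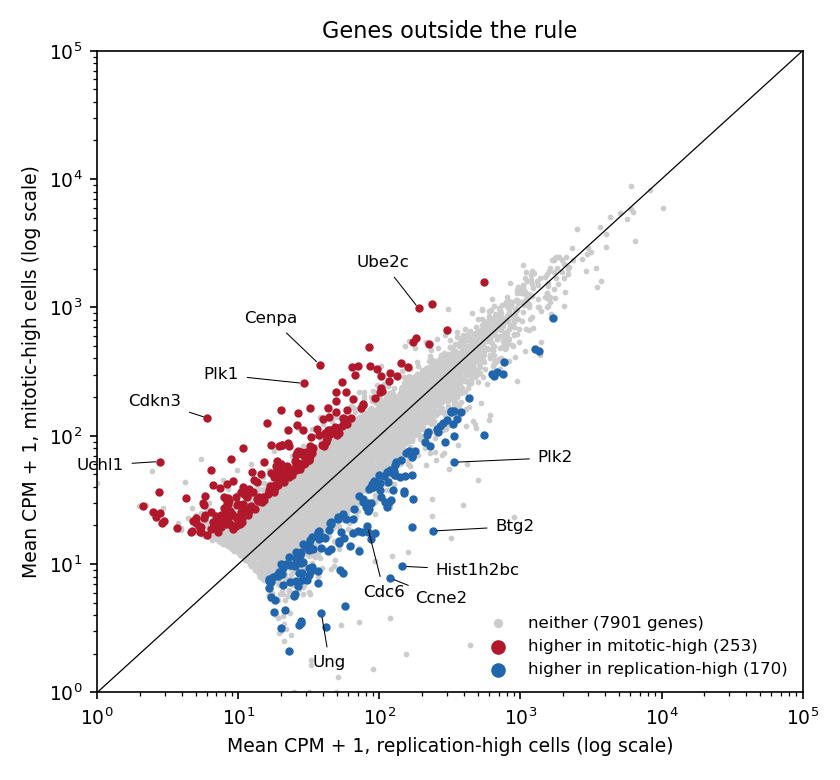
Mean CPM + 1 of each of 8324 genes in the replication-high (horizontal) and mitotic-high cells (vertical), both on log scales, with the line of equal means. Red points are the 253 genes higher in the mitotic-high cells, blue points the 170 higher in the replication-high cells, and grey points the other 7901 genes, some of which lie as far from the line but overlap between sets.

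On balance, cell cycle genes outside the rule ran in the direction of the rule genes, while most of the called genes stood on no cell cycle list. Lists of mitotic genes, 199 genes of which 195 reached 10 CPM, held 32 of the 253 genes higher in the mitotic-high cells (12.6%) and 0 of the 170 higher in the replication-high cells, with a median log2 ratio of 0.60. The 32 were 16.4% of the 195, against 3.04% of all genes called in this direction. Lists of replication genes, 219 genes of which 138 reached 10 CPM, held 19 of the 170 (11.2%) and 2 of the 253, with a median of -0.29. The 19 were 13.8% of the 138, against 2.04% of all genes. They include 2 histone genes, Hist1h2bc and Hist1h1c, that were low in the mitotic-high cells rather than particular to the replication-high cells (below). Over the pairs of 1 mitotic-high and 1 replication-high cell, the SD of the median was 0.60 for the mitotic and 0.41 for the replication lists. The median of the mitotic lists was 0.34 without cell 12. The median of the replication lists was -0.17 without cell 5, -0.11 without cell 2 and -0.50 without cell 12. Leaving out cell 5 raised the mitotic count from 32 to 49 and leaving out cell 1 to 58, and the replication count of 19 became 29 without cell 8 and 36 without cell 12. In the opposite directions, the 0 mitotic-list genes became 3 without cell 9, 4 without cell 12 and 1 without cell 8 or cell 2, and the 2 replication-list genes became 5 without cell 1, 4 without cell 2 and 1 without cell 9, cell 5 or cell 12. The filter is on the mean of the 6 cells, so a gene low in general could pass it through its high set alone, and counts over the genes that passed are a description. The lists hold genes of the same steps as the rule genes, so their direction follows in part from the choice of cells. The lists follow in the order in which a cell would use them.

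Of the cyclins, kinases and E2F factors that take a cell from G1 into S, Ccne2, a partner of Cdk2, stood out. Ccne2 was counted at 4.61, 15.7 and 0 CPM in cells 9, 5 and 8 and at 179, 119 and 56.2 CPM in cells 2, 1 and 12, a mean 17.4-fold higher in the replication-high cells (log2 ratio -3.94). The sets did not overlap, and the other 6 cells ran from 0 to 3.59 CPM (median 0.576), below 2 of the 3 mitotic-high cells. The summed counts behind it were 101 (95% interval 82.3 to 123) and 1458 (95% interval 1384 to 1535). Intervals on summed counts, here and below, cover counting error only and not the spread between cells. Its paralogue Ccne1 overlapped between sets, with 46.5, 6.37 and 304 CPM in the mitotic-high and 489, 616 and 117 CPM in the replication-high cells, since cell 8 held more of it than cell 12. Ccnd1, the cyclin that answers to growth factors, differed little (979 ± 214 CPM against 825 ± 330.0 CPM, SD, n = 3 cells each), and so did E2f1 (46.8 ± 37.4 against 63.6 ± 16.4 CPM). Of the 21 genes of this list that reached 10 CPM, of 23, Ccne2 was the only call (4.76%, against 2.04% of all genes), and the median log2 ratio was -0.16. Without cell 2 the median was -0.07 and without cell 12 it was -0.32.

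Origins are licensed in G1, when the origin recognition complex, Cdc6 and Cdt1 load the Mcm helicase, and fire in S phase once Cdc45 and the GINS complex join it. In this list 24 of 26 genes reached 10 CPM, and 20 of the 24 had a negative log2 ratio. Of the 24, 4 (16.7%) were higher in the replication-high cells and 1 (4.17%) in the mitotic-high cells, against 2.04% and 3.04% of all genes. The median was -0.46, which became -0.84 without cell 5 and -0.71 without cell 8. Cdc6, the loader, was at 11.3, 11.9 and 33.3 CPM in cells 9, 5 and 8 and at 78.0, 52.7 and 113 CPM in cells 2, 1 and 12 (log2 ratio -2.05). The replication-high cells were all above the mitotic-high cells, and both sets were above the other 6 cells, which ran from 0 to 2.07 CPM (median 0). Wdhd1, which ties the helicase to DNA polymerase alpha, was at 28.9, 32.0 and 25.8 CPM against 101, 70.9 and 86.6 CPM, 2.98-fold higher in the replication-high cells, and did not exceed 0.18 CPM in the other 6. It was even within each set, with 28.9 ± 3.11 and 86.1 ± 14.9 CPM (SD, n = 3 cells each).

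Gins3, a subunit of GINS, was at 9.01, 7.96 and 2.73 CPM in the mitotic-high and 24.9, 29.2 and 34.8 CPM in the replication-high cells, and Mcm10, which binds the loaded helicase, was at 15.9, 13.3 and 29.1 CPM against 42.0, 59.9 and 31.3 CPM. For Mcm10 the gap between sets was narrow, since cell 8 nearly reached cell 12. The exception was Dbf4, the activating subunit of the Cdc7 kinase that fires origins, at 312, 201 and 151 CPM in the mitotic-high and 101, 129.7 and 81.9 CPM in the replication-high cells (2.12-fold). Cdc45 was 2.08-fold higher in the means of the replication-high cells but overlapped, with 69.6, 40.8 and 56.2 CPM against 126, 161 and 59.0 CPM. Cdt1 was at 130.4, 123 and 17.8 CPM against 183, 154 and 113 CPM and Gmnn, which encodes its inhibitor geminin, at 58.5, 87.4 and 194 CPM against 181, 205 and 73.8 CPM. Cell 8 was the lowest of the 6 cells for Cdt1 and among the highest for Gmnn.

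Among polymerases, the clamp loader and other fork proteins, 36 of 37 genes reached 10 CPM. Of these, 6 (16.7%, against 2.04% of all genes) were higher in the replication-high cells and 0 in the mitotic-high cells. The median log2 ratio was -0.41, or -0.27 without cell 1. Rpa2, a subunit of the protein that coats single-stranded DNA, was at 63.1, 65.1 and 74.5 CPM in cells 9, 5 and 8 and at 214, 157 and 133 CPM in cells 2, 1 and 12. Uhrf1, which brings the maintenance methyltransferase to newly copied DNA, was at 74.4, 73.6 and 76.0 CPM against 124, 153 and 203 CPM. For both genes the mitotic-high cells were close to each other and far above the other 6 cells, which reached 29.0 CPM of Rpa2 and 11.5 CPM of Uhrf1.

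The other 4 calls of the fork list lay between 2.07-fold and 2.57-fold. They were Tipin, of the fork protection complex (154 ± 66.7 against 319 ± 42.2 CPM), Rfc4, a clamp loader subunit (51.3 ± 8.22 against 113 ± 16.7 CPM), Chaf1a, which places histones behind the fork (29.2 ± 14.6 against 75.2 ± 12.5 CPM), and Atad2, a chromatin ATPase (101 ± 22.0 against 218 ± 74.6 CPM). The catalytic subunit of polymerase alpha, Pola1, overlapped between sets (51.6, 29.8 and 68.4 CPM against 104, 89.2 and 17.7 CPM), with cell 12 the lowest of the 6.

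Deoxynucleotide supply held calls in both directions. Of 24 genes at 10 CPM or more, of 25, 2 (8.33%) were higher in the replication-high and 1 (4.17%) in the mitotic-high cells, against 2.04% and 3.04% of all genes. The median log2 ratio of -0.11 was 0.14 without cell 2 and -0.25 without cell 8. Rrm2, the S phase subunit of ribonucleotide reductase, was at 677, 419.7 and 1406 CPM in cells 9, 5 and 8 and at 1428, 1670.4 and 506 CPM in cells 2, 1 and 12. Tk1, thymidine kinase, was at 156, 58.9 and 326 CPM against 128, 221 and 17.9 CPM. Cell 8 was high and cell 12 low for both, and the sets overlapped. The p53-inducible reductase subunit Rrm2b (8.59, 3.58 and 1.45 against 24.7, 13.03 and 10.7 CPM) and Ppat, which begins purine synthesis (36.5, 31.0 and 44.2 CPM against 96.0, 88.0 and 67.0 CPM), were higher in the replication-high cells, and Cad, which begins pyrimidine synthesis, was higher in the mitotic-high cells (43.4, 70.8 and 26.0 CPM against 23.2, 19.7 and 8.26 CPM).

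Of 40 DNA repair and replication checkpoint genes, 30 reached 10 CPM and 4 (13.3%, against 2.04% of all genes) were higher in the replication-high cells. Ung, the uracil glycosylase, had the largest ratio of these, 12.0-fold, with 1.26, 2.19 and 6.0 CPM in cells 9, 5 and 8 and 37.0, 7.24 and 69.1 CPM in cells 2, 1 and 12. Its lowest replication-high cell, cell 1, was just above cell 8. Msh6, of mismatch recognition, was at 67.7, 16.5 and 12.4 CPM against 129, 71.5 and 105 CPM, where cell 9 nearly reached cell 1. Exo1, the exonuclease of mismatch repair, was at 58.1, 30.8 and 36.0 CPM against 97.5, 72.4 and 129.9 CPM. Rad51ap1, of homologous recombination, was at 57.6, 30.8 and 28.2 CPM against 116, 90.3 and 62.0 CPM, with a narrow gap between cells 9 and 12. Brca1 was higher in cells 2 and 1 but not in cell 12 (60.5, 58.8 and 10.4 CPM, against 12.6, 20.9 and 13.1 CPM). The median over the list was -0.10. It ran from -0.41 without cell 12 and -0.17 without cell 9 to 0.02 without cell 5 and 0.10 without cell 2.

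Histone mRNA made in S phase mostly ends without a poly(A) tail, and 3 of 68 genes for replication-dependent histones reached 10 CPM. Hist1h2bc was at 1.47, 14.9 and 9.45 CPM in the mitotic-high and 150.1, 225 and 58.5 CPM in the replication-high cells, 16.8-fold higher in the latter, and Hist1h1c at 0.21, 3.18 and 4.0 CPM against 30.4, 20.0 and 30.6 CPM. The other 6 cells had a median at or above the replication-high mean for both, with 10.6 to 842 CPM (median 159.7) of Hist1h2bc and 4.78 to 150.4 CPM (median 36.6) of Hist1h1c. These 2 genes were therefore low in the mitotic-high cells rather than particular to the replication-high cells.

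On the mitotic side, the transcription factors that drive these genes come first. None of the 7 DREAM, MuvB and FoxM1 genes was called, and their median log2 ratio was 0.18, or -0.01 without cell 9 and 0.34 without cell 2. Foxm1 was at 108, 57.7 and 25.8 CPM in cells 9, 5 and 8 and at 45.9, 36.2 and 10.9 CPM in cells 2, 1 and 12. Mybl2, which encodes B-Myb, was at 18.7, 0 and 41.3 CPM against 28.9, 46.6 and 34.3 CPM. Both overlapped between the sets, and no count of Mybl2 was seen in cell 5.

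Mitotic cyclins, kinases, checkpoint and APC/C genes held 10 calls among the 37 of 38 genes that reached 10 CPM (27.0%, against 3.04% of all genes), all higher in the mitotic-high cells. The median log2 ratio was 0.82, or 0.53 without cell 12, and 30 of the 37 were positive. Ccnb1, the cyclin that carries Cdk1 into mitosis, was at 784, 534 and 286 CPM in cells 9, 5 and 8 and at 258, 217 and 39.2 CPM in cells 2, 1 and 12 (3.12-fold). Cells 8 and 2 were close, and no cell of the other 6 exceeded 20.1 CPM. Ccna2, which serves both S phase and mitotic entry, was 3.46-fold higher in the means but overlapped, with 609, 142 and 299 CPM against 155, 148 and 1.23 CPM, because cell 5 lay just under cells 2 and 1.

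Both Cdc25b and Cdc25c, phosphatases that switch on Cdk1, were higher in the mitotic-high cells. Cdc25b was at 232, 116 and 26.5 CPM in the mitotic-high and 10.1, 20.3 and 14.8 CPM in the replication-high cells (log2 ratio 2.97), and Cdc25c at 89.1, 50.5 and 56.0 CPM against 8.39, 15.3 and 0 CPM (2.89). Plk1, the polo-like kinase that acts from mitotic entry to cytokinesis, was at 543, 108 and 114 CPM against 31.9, 52.4 and 0 CPM, 9.07-fold, with summed counts of 3758 (95% interval 3639 to 3880.1) and 310 (95% interval 276 to 347). Cell 9 alone carried most of the Plk1 signal, yet cells 5 and 8 were still above every replication-high cell. Aurkb, the kinase of the chromosomal passenger complex, overlapped through cells 5 and 1 (379, 115 and 254 CPM against 101, 185 and 0 CPM), and Bub1, of the spindle checkpoint, through cells 8 and 1 (286, 259 and 114 CPM against 82.5, 120.2 and 9.84 CPM).

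Cdc20, the mitotic activator of the APC/C, was at 737, 151 and 142 CPM in cells 9, 5 and 8 and at 102, 60.2 and 25.1 CPM in cells 2, 1 and 12 (5.49-fold). Ube2c, the ubiquitin-conjugating enzyme that works with the APC/C, was at 1196, 1219 and 529 CPM against 242, 309 and 16.2 CPM (5.19-fold), and its partner Ube2s at 132, 77.6 and 102 CPM against 51.6, 71.2 and 29.5 CPM. Pttg1, the securin that the APC/C destroys at anaphase, was at 451, 403 and 201 CPM against 77.5, 139 and 37.1 CPM, and Bub1b, the checkpoint protein BubR1, at 154, 82.6 and 123 CPM against 21.5, 53.3 and 0 CPM. The sets did not overlap for any of these 5 genes. Fzr1, which encodes the late activator Cdh1, was also higher in the mitotic-high cells, 274, 66.3 and 148 CPM against 38.8, 27.8 and 61.2 CPM. None of the subunits of the APC/C itself on the list was called, and their log2 ratios ran from -0.18 in Cdc16 to 0.89 in Cdc27.

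Kinesins and spindle proteins had the largest median of the mitotic lists, 1.29. Of the 38 genes at 10 CPM or more (of 40), 13 (34.2%, against 3.04% of all genes) were higher in the mitotic-high cells and 0 in the other direction. The median was 0.85 without cell 9 and 0.81 without cell 12. Prc1, which bundles the microtubules of the central spindle, was at 870.4, 226 and 375 CPM in cells 9, 5 and 8 and at 137, 106 and 7.73 CPM in cells 2, 1 and 12 (log2 ratio 2.54). Kif20a and Kif23, motors of the same structure, were at 299, 51.1 and 122 CPM against 38.0, 19.7 and 0 CPM and at 288, 55.9 and 109 CPM against 38.0, 38.2 and 0 CPM. In all 3 genes cell 9 was highest, then cell 8 and then cell 5, and cell 12 was at or near 0.

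Aspm, which holds spindle poles together, was 8.19-fold higher in the mitotic-high cells (136, 75.4 and 28.2 CPM against 22.0, 7.24 and 0 CPM), with no count in most of the other 6 cells. Nusap1, which binds microtubules near chromosomes, followed another order, with cell 5 highest (288, 521 and 237 CPM against 79.5, 129 and 1.41 CPM). Kif2c, the depolymerising kinesin of centromeres, was at 111, 62.9 and 77.6 CPM against 27.4, 31.0 and 0.176 CPM, and Tacc3, of the microtubule cross-links at kinetochore fibres, at 364, 248 and 179 CPM against 71.4, 72.1 and 16.5 CPM. Ckap5, a microtubule polymerase, was at 251, 261 and 140.0 CPM against 87.2, 128 and 84.5 CPM. Hmmr, Fam64a, Spag5, Kif20b and Kif4 made up the remaining calls, between 2.08-fold (Kif4) and 4.54-fold (Fam64a). The plus-end motor Kif11, which pushes spindle poles apart, overlapped through cell 5 (99.8, 20.3 and 50.7 CPM against 30.4, 34.7 and 0 CPM), although it did not exceed 0.571 CPM in the other 6 cells.

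All 39 centromere, kinetochore and passenger genes reached 10 CPM. Of these 5 (12.8%, against 3.04% of all genes) were higher in the mitotic-high cells, 0 in the replication-high cells, and 34 had a positive log2 ratio. The median was 0.74, or 0.32 without cell 12. Cenpa, the histone variant that marks centromeres, was at 427, 489 and 158 CPM in cells 9, 5 and 8 and at 61.7, 41.4 and 6.85 CPM in cells 2, 1 and 12, a 9.76-fold difference with summed counts of 5362 (95% interval 5219 to 5507) and 432 (95% interval 392 to 475). In the other 6 cells Cenpa ran from 11.9 to 103 CPM (median 46.8), about the level of the replication-high cells. Its chaperone Hjurp was at 199, 91.3 and 114 CPM against 70.9, 75.3 and 23.0 CPM.

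Birc5 and Cdca8, survivin and borealin of the passenger complex, were at 706, 413 and 614 CPM against 164, 363 and 13.4 CPM and at 329.5, 102 and 221 CPM against 81.5, 70.9 and 18.3 CPM. Nuf2, of the Ndc80 complex that grips microtubules, was at 189, 130.3 and 151 CPM against 83.9, 77.6 and 12.8 CPM. Its partner Ndc80 overlapped through cells 5 and 1 (269, 82.2 and 141 CPM against 78.5, 96.4 and 21.4 CPM), so the 2 subunits of 1 complex fell on different sides of the criteria with log2 ratios of 1.41 and 1.31.

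Of 20 cytokinesis genes at 10 CPM or more, of 21, 3 (15.0%, against 3.04% of all genes) were higher in the mitotic-high cells, and the list median was 0.10, or 0.22 without cell 9, 0.21 without cell 12, 0.19 without cell 2 and 0.0093 without cell 1. They were Ect2, the exchange factor that activates RhoA at the cleavage furrow (349, 79.4 and 60.9 CPM against 60.0, 24.3 and 8.61 CPM), Anln, the furrow scaffold anillin (429, 353 and 203 CPM against 139, 115 and 30.4 CPM), and Shcbp1 (165, 64.1 and 173 CPM against 56.8, 59.6 and 0 CPM). Racgap1, the partner of Kif23 in centralspindlin, was 3.32-fold higher but overlapped, with 747, 218 and 539 CPM against 147, 267 and 40.4 CPM. The 33 condensin, cohesin and chromosome genes held no call, with a median of 0.42 that was 0.16 without cell 5 and 0.24 without cell 12. Mki67, the Ki-67 antigen that coats mitotic chromosomes, was at 305, 135 and 220.0 CPM against 79.0, 149 and 2.28 CPM and overlapped through cells 5 and 1. Of 21 tubulin, stathmin and lamin genes, Tuba1c alone (4.76%, near the 3.04% of all genes) was higher in the mitotic-high cells (1125, 436 and 443 CPM against 309.9, 345 and 253 CPM), and the median of 0.38 was 0.12 without cell 9, 0.61 without cell 5 and 0.22 without cell 12.

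**Figure D3:**
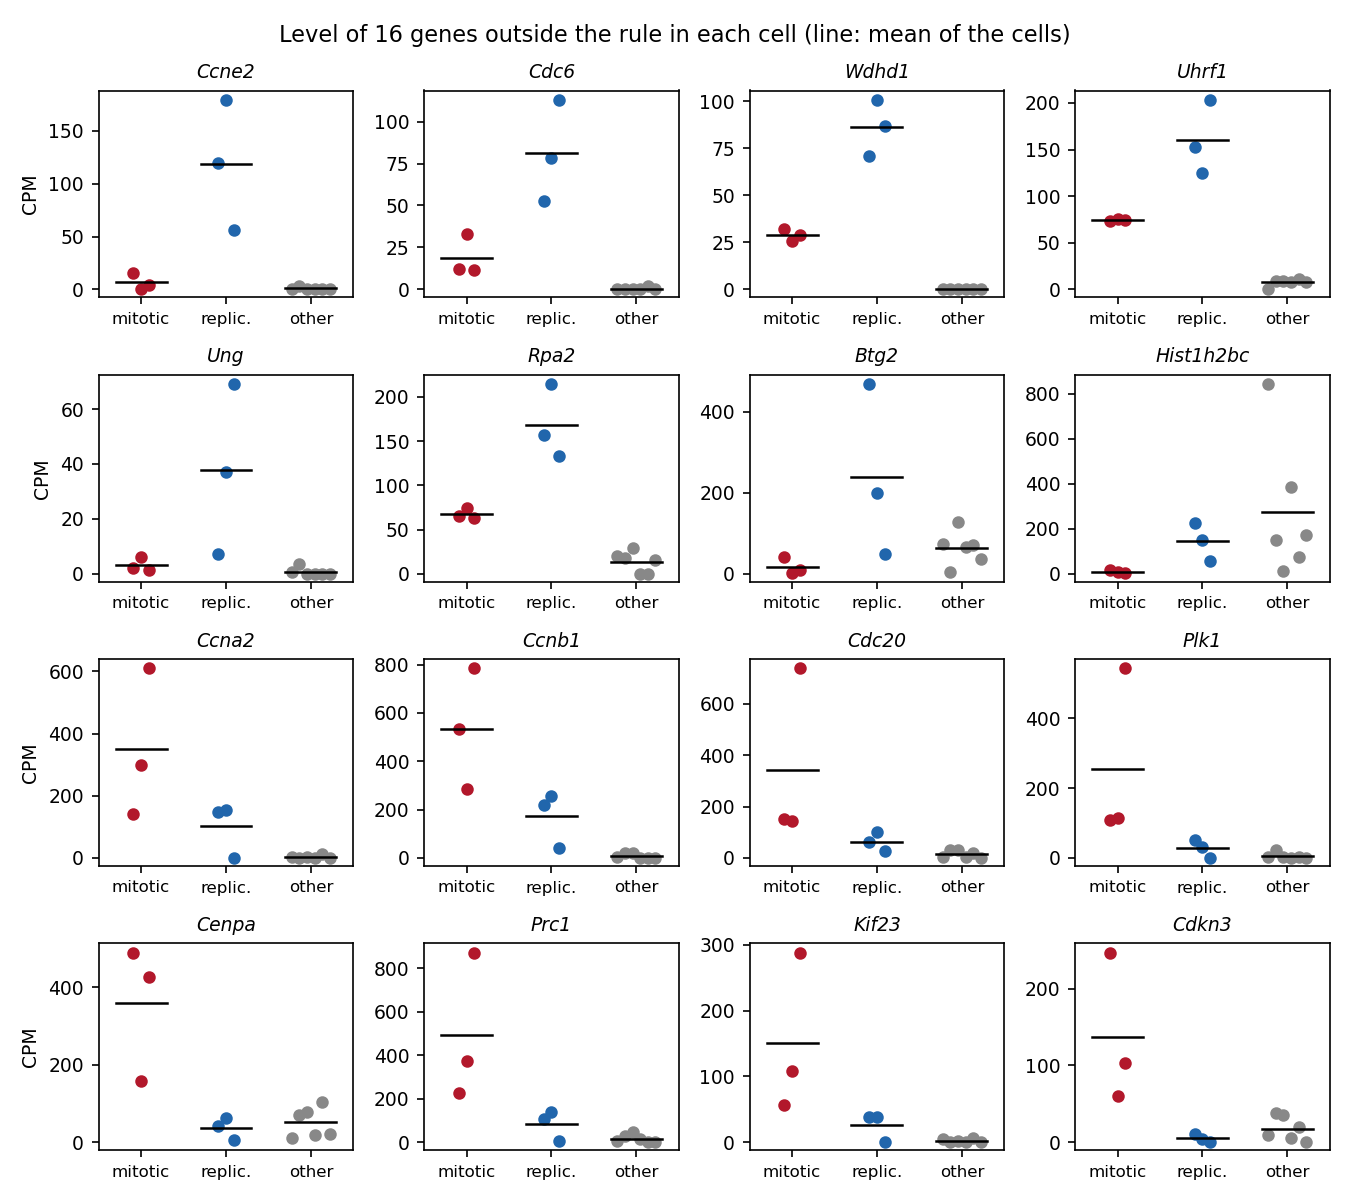
CPM on linear scales, each panel with its own axis, of 16 genes outside the rule in the 3 mitotic-high (red), 3 replication-high (blue) and other 6 cells (grey), with a line at the mean. The upper 8 panels are genes higher in the replication-high cells and the lower 8 are higher on average in the mitotic-high cells. Ccna2 is the panel whose sets overlap, and in the Btg2 and Hist1h2bc panels most of the other cells lie above the mitotic-high mean.

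Several of these genes share exon bases with a neighbour, and the strand rule of the counting is not given in the sources used here, so reads of both genes could not be told apart. Among genes named above these are Ccne2 (with Ints8), Tk1 (with Afmid), Foxm1 (with Gm44596), Ccna2 (with Exosc9), Fzr1 (with Mfsd12), Cdc20 (with Elovl1), Cdc25b (with Spef1), Prc1 (with Rccd1), Kif20a (with Cdc23), Ube2c (with Tnnc2), Nusap1 (with Oip5), Tacc3 (with Tmem129), Kif4 (with Pdzd11), Chaf1a (with Ubxn6), Msh6 (with Fbxo11), Rfc4 (with Eif4a2) and Ppat (with Paics). In the GENCODE vM21 annotation of this build (mm10), Ccne2 lies at chr4:11191351-11204779, Plk1 at chr7:122159439-122169873 and Cenpa at chr5:30666777-30674830, each as a protein-coding gene, and Plk1 and Cenpa share no exon base with another gene.

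The called mitotic and replication genes differed in promoter letters, which played no part in choosing the cells. RefSeq promoters (build GRCm38.p6, 250 bases before to 50 after the gene start) were matched for 28 of the 32 mitotic-list genes higher in the mitotic-high cells and for 12 of the 19 replication-list genes higher in the replication-high cells. The CHR was searched as TTTGAA or TTCGAA on both strands. It was found in 20 of 28 promoters of the mitotic genes (71.4%) and in 1 of 12 of the replication genes (8.33%), against 19.4% of all 27025 promoters and 13.7% of the 6598 promoters of genes described here. A CCAAT box (CCAAT on either strand) was in 19 of 28 (67.9%) and 7 of 12 (58.3%), against 37.9% of all promoters and 39.2% of those of genes described here. CHR and CCAAT occurred together in 16 of 28 (57.1%) of the mitotic promoters, 7.70% of all and 5.94% of those of genes described here. An E2F site, searched on both strands as TTTCCCGC, TTTCGCGC, TTTGCCGC or TTTGGCGC, was in 0 of 28 and in 4 of 12 (33.3%: Cdc6, Gins3, Msh6 and Ppat), against 2.32% of all promoters and 4.61% of those of genes described here. None of the E2F motifs contains the letters of the CHR or of the CCAAT box. Among the 171 matched genes higher in the mitotic-high cells that stood on no list, 38 held a CHR (22.2%), as did 9 of the 114 such genes higher in the replication-high cells (7.89%), against the same 13.7% and 19.4%. The lists were drawn up from genes known to be regulated in the cell cycle, so these shares describe the genes and were not tested.

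**Figure D4:**
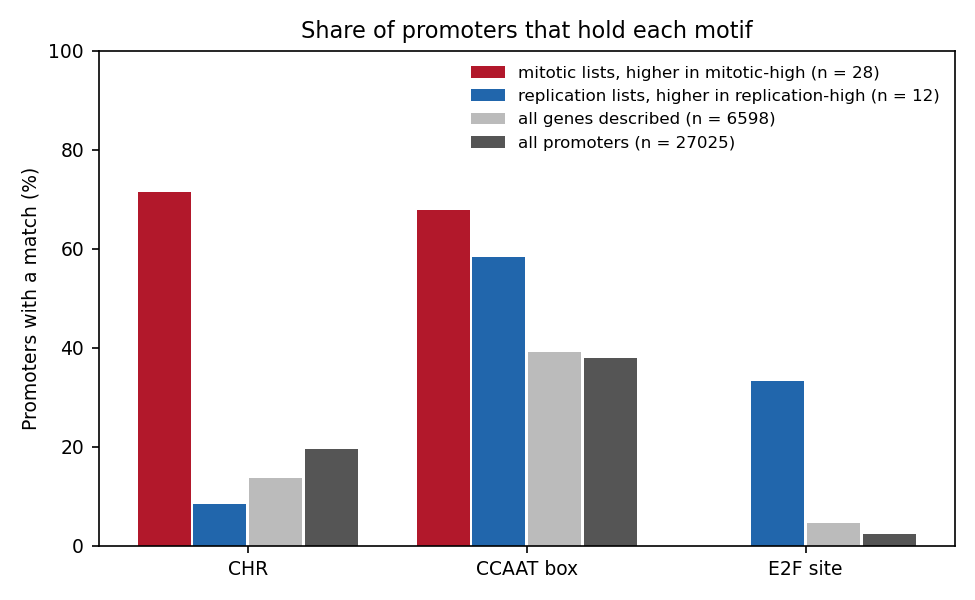
Bars give the percentage of promoters with at least 1 match to the CHR, the CCAAT box or the E2F site, for the 28 called mitotic-list genes (red), the 12 called replication-list genes (blue), the 6598 genes described (light grey) and all 27025 promoters (dark grey). The CHR bar is highest for the mitotic genes at 71.4%, and the E2F bar is at 0 for them and at 33.3% for the replication genes.

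The 150 bases before the gene start are shown, 5′ to 3′ in the direction of the gene, for 4 mitotic genes (Cdc20, Ect2, Kif2c and Ckap5) and for Cdc6, because they place the motifs beside the measurements. Only stretches that hold a match were taken, so the presence of the motif was fixed by that choice, and genes with larger ratios such as Cenpa and Plk1 are not shown. Capitals mark the CHR in the first 4, the E2F site in Cdc6 and any CCAAT box.
Cdc20 (chr4:118437344-118437493, minus strand): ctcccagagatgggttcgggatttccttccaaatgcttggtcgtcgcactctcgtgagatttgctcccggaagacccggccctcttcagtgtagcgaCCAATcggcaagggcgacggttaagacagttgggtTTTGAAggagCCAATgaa
Ect2 (chr3:27153879-27154028, minus strand): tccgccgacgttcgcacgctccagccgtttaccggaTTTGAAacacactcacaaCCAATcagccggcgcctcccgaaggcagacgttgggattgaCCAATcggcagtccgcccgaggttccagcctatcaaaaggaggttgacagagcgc
Kif2c (chr4:117178773-117178922, minus strand): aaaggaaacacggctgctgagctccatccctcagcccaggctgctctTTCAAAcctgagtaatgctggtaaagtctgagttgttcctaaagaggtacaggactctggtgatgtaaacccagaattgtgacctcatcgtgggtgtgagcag
Ckap5 (chr2:91526612-91526761, plus strand): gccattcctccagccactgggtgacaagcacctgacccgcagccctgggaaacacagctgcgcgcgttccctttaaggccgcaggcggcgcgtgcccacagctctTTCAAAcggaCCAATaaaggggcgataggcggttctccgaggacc
Cdc6 (chr11:98908001-98908150, plus strand): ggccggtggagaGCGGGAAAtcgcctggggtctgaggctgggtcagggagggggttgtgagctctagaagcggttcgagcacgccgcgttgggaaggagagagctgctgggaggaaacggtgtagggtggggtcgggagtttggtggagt
Counted from the gene start, the CHR began at -18 in Cdc20, between 2 CCAAT boxes, and at -114 in Ect2, upstream of both CCAAT boxes. In Kif2c it began at -103 with 0 CCAAT boxes in the stretch, and in Ckap5 at -45 with 1. Cdc6 held the E2F letters GCGGGAAA at -138. These positions count from the RefSeq start. The GENCODE genes of Kif2c and Cdc6 begin farther upstream, so that both stretches lie within them, and that of Cdc20 begins a few bases upstream. A match is a run of letters and not a measured binding site.

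Against the other 6 cells, a part of the replication genes was higher in each set, 54 of 138 in the mitotic-high and 65 of 138 in the replication-high cells. Most kinase, spindle and kinetochore genes were higher in the mitotic-high cells, and their count in the replication-high cells rested on cell 12. With the same criteria applied to 3 cells against 6, the mitotic-high cells were above the other 6 for 75 of these 114 genes (background 4.84% of 8324 genes), and the replication-high cells for 23 of 114 (background 3.36%). Without cell 12 the latter count was 72, and without cell 2 or cell 1 it was 23 or 24 (added after seeing the data). All 6 chosen cells together were above the other 6 for 22 of the 114 mitotic and 41 of the 138 replication genes (background 1.95%). In the opposite direction, the mitotic-high cells lay below the other 6 for 65 genes (0.781% of 8324) and the replication-high cells for 41 (0.493%). None of these genes was in a mitotic list, and the only 1 in a replication list was a histone gene. The other 6 cells are those with low rule sums, so a difference of this kind follows in part from the rule. The 8324 genes passed a filter on the 6 chosen cells alone. Genes high only in the other 6 were thus left out, which lowers the counts below relative to those above. Licensing genes other than the rule genes summed to 1854, 1745 and 1712 CPM in cells 9, 5 and 8 and to 2583, 2888 and 1888 CPM in cells 2, 1 and 12, against 488 to 1088 CPM in the other 6. Fork genes summed to 2597, 2281 and 3422 CPM and 4240.2, 4621 and 2782 CPM, against 615 to 1457 CPM.

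**Figure D5:**
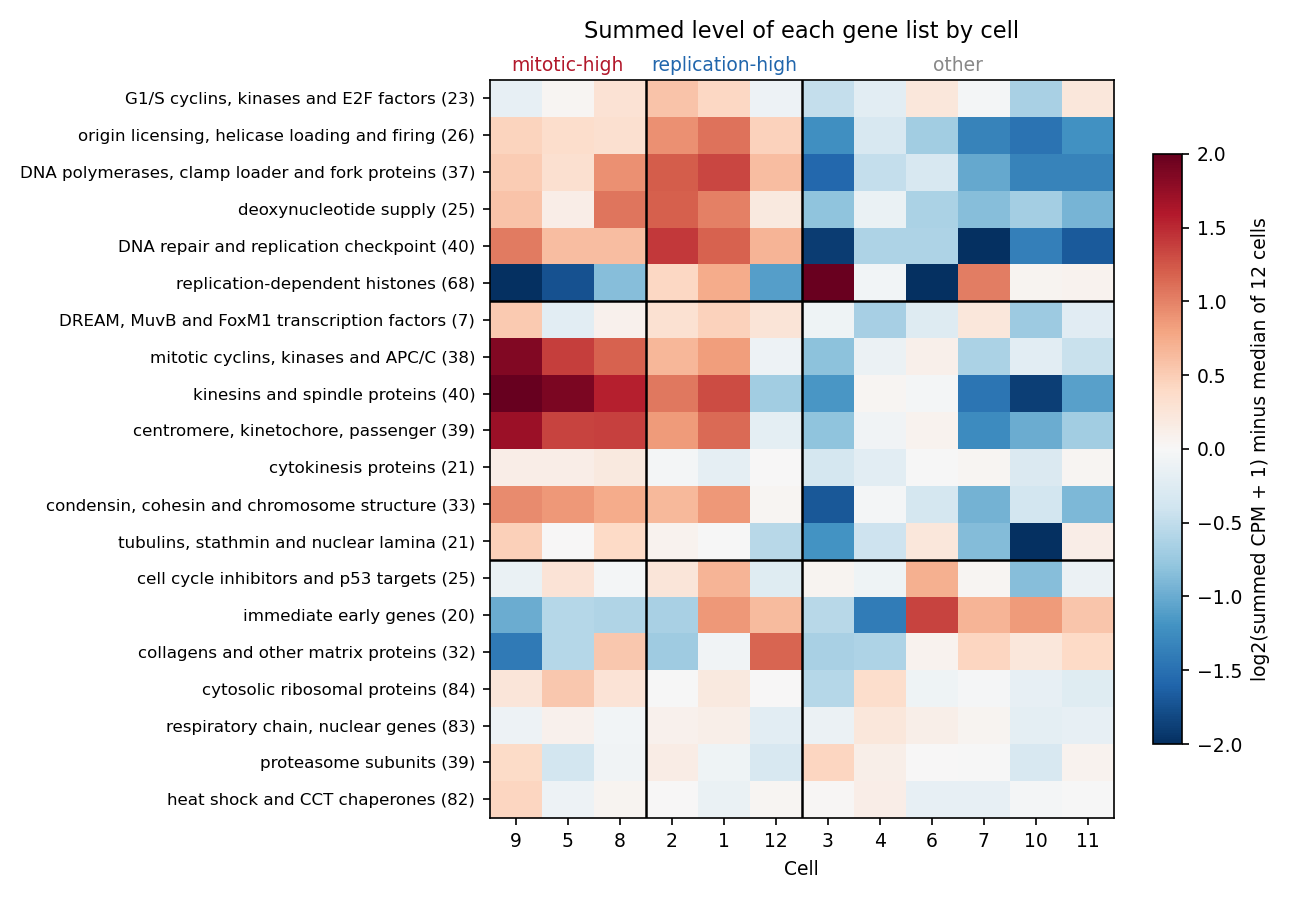
Each tile is the summed level of a gene list (row, number of genes in parentheses) in 1 cell (column), as log2(summed CPM + 1) minus the median of the 12 cells, with colour limited to 2 units either way. Licensing and fork rows are red in all 6 chosen cells, while kinase, spindle and kinetochore rows are darkest in cells 9, 5 and 8, lighter in cells 2 and 1 and pale or blue in cell 12.

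The 3 replication-high cells were not alike on the mitotic side. Mitotic kinase, spindle and kinetochore genes outside the rule summed to 22246, 15228 and 13527 CPM in cells 9, 5 and 8 and to 9493, 11060.3 and 4616 CPM in cells 2, 1 and 12, while the other 6 cells ran from 2833 to 5688 CPM. Cells 2 and 1 were thus between the mitotic-high cells and the rest, and cell 12 was within the rest. Of these 117 genes, 0, 0 and 2 had no count in cells 9, 5 and 8, 0 and 1 in cells 2 and 1, and 19 in cell 12. Cell 12 had the largest total count of the 6 cells and 10036 genes detected, and cell 8 had 10022. The part of detection in these zeros was not tested. Cell 12 was the highest of the 12 cells for Cdc6 (113 CPM), Uhrf1 (203 CPM) and Exo1 (129.9 CPM).

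The mitotic-high cells also differed among themselves. Cell 8 held the highest Ccne1 (304 CPM), Rrm2 (1406 CPM) and Tk1 (326 CPM) of its set and the highest sum of fork genes, but the lowest sum of licensing genes. Cell 8 held no count of Ccne2. Its Ube2c, Cenpa and Prc1 were above those of cells 2, 1 and 12, as the criteria require of any called gene. Its Cenpf (21.1 CPM) was below that of cells 2 and 1 (33.8 and 81.1 CPM), and its Bub1 (114 CPM) was below that of cell 1 (120.2 CPM). Cell 9 held the largest sum of mitotic genes, and cell 5 the lowest sum of fork genes within its set.

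The position of the other 6 cells shows whether a called gene was high in its set or low in the opposite one. For 137 of the 253 genes higher in the mitotic-high cells, the median of the other 6 cells did not exceed the highest replication-high cell, for 57 it lay between the sets and for 59 it reached the lowest mitotic-high cell. For the 170 genes higher in the replication-high cells it did not exceed the highest mitotic-high cell for 63, lay between the sets for 21 and reached the lowest replication-high cell for 86. On both sides the other 6 cells thus lay with the replication-high cells more often than with the mitotic-high cells.

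Cell cycle inhibitors and p53 targets, 25 genes of which 20 reached 10 CPM, held calls in both directions, 3 (15.0%) higher in the replication-high and 2 (10.0%) in the mitotic-high cells, against 2.04% and 3.04% of all genes. Btg2, an antiproliferative p53 target, was at 8.39, 40.4 and 2.55 CPM in cells 9, 5 and 8 and at 199, 468 and 47.5 CPM in cells 2, 1 and 12 (13.9-fold), with 3.59 to 128 CPM (median 68.2) in the other 6. Plk2 and Plk3, stress-responsive polo-like kinases, were at 81.8, 80.8 and 21.1 CPM against 179.8, 251 and 585 CPM and at 14.9, 0.995 and 22.4 CPM against 23.2, 53.3 and 106 CPM, and the other 6 cells ran from 115 to 422 CPM (median 193) and from 30.2 to 200.4 CPM (median 75.5). For these 3 genes the mitotic-high cells were below most other cells. Plk3 shares exon bases with Tctex1d4. Of the same list, Cdkn2d, the inhibitor p19, and Ei24 were higher in the mitotic-high cells (113, 41.8 and 90.0 CPM against 29.6, 22.3 and 3.51 CPM and 69.6, 126 and 116 CPM against 44.7, 55.3 and 20.7 CPM). Cdkn1a, which encodes p21, overlapped (476, 551 and 846 CPM against 833, 1430.1 and 584 CPM). The list median was -0.11 and was 0.12 without cell 1 and -0.40 without cell 5.

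Immediate early genes, which answer to serum and stress within minutes, had a median log2 ratio of -1.28 over the 17 of 20 that reached 10 CPM, with 1 call (5.88%, against 2.04% of all genes in its direction). That call was Junb, an AP-1 subunit, at 159, 106 and 34.4 CPM in the mitotic-high and 219, 800.3 and 629.5 CPM in the replication-high cells. Egr1 was 14.2-fold higher in the means of the replication-high cells but overlapped between cells 5 and 2 (20.8, 62.1 and 0.545 CPM against 53.3, 284 and 843 CPM). The summed level of the list was 965, 1287 and 1261 CPM in cells 9, 5 and 8 and 1221, 3513 and 2984 CPM in cells 2, 1 and 12. The other 6 cells ran from 724 to 4879 CPM (median 2946). Against these 6, the median log2 ratio was -1.66 for the mitotic-high and -0.22 for the replication-high cells, so the mitotic-high cells were the low ones. Cell 2 lay among the mitotic-high cells, and the median between the sets was -0.15 without cell 1 and -0.59 without cell 12.

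Collagens and other matrix proteins had a median of -0.77 over 28 of 32 genes, with Loxl2, a collagen cross-linking enzyme, as the only call (3.57%, near the 2.04% of all genes, at 0.419, 6.96 and 11.3 CPM against 16.3, 13.6 and 18.6 CPM). Their sums were 6701, 12059.7 and 25933 CPM in the mitotic-high and 10945, 17174 and 40319 CPM in the replication-high cells, and cell 12 was the highest of all 12. Without cell 12 the median was 0.27, so the direction rested on that cell, and without cell 9 it was -0.44 and without cell 8 -1.16. Fibroblast markers (6 of 10 at 10 CPM or more) did the same, with a median of -0.79 that was 0.89 without cell 12, -0.35 without cell 9 and -1.39 without cell 8. In cell 12 they summed to 6764 CPM against 709 to 3003 CPM in the other 5 chosen cells. The part of this in the differences between sets was not tested.

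Markers of other cell types were low in the 6 chosen cells. Endothelial markers summed to 2.93 to 120 CPM with 5 to 8 of 10 genes at 0, haematopoietic markers to 2.99 to 76.3 CPM with 5 to 8 of 10 at 0, mural markers to 22.2 to 145 CPM with 6 to 8 of 10 at 0 and cardiomyocyte markers to 0 to 86.6 CPM with 8 to 10 of 10 at 0. The cells with high sums of the first 3 lists were among the other 6: cell 10 held 7830 CPM of endothelial, cell 3 held 1623 CPM of haematopoietic and cell 11 held 3737 CPM of mural markers. Cardiomyocyte markers went the other way, with 86.6 CPM in cell 12 and 59.1 CPM in cell 8, each with 9 of 10 genes at 0. The other 6 cells reached 6.47 CPM.

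By size alone, the 10 genes with the largest log2 ratio in each direction were taken among called genes averaging 50 CPM or more in the higher set. They were mostly cell cycle genes on the mitotic side and mostly not on the replication side. On the mitotic side Cdkn3, a phosphatase that acts on cyclin-dependent kinases, led with 103, 247 and 59.6 CPM against 4.69, 10.4 and 0 CPM (log2 ratio 4.51), and Cenpa, Plk1, Cdc25b, Kif20a, Aspm, Cdc25c and Prc1 followed at 2.54 to 3.25. The other 2 were Uchl1, a ubiquitin hydrolase best known from neurons, at 47.0, 80.0 and 59.1 CPM against 1.73, 2.03 and 1.58 CPM, and Fiz1, a zinc finger protein, at 69.8, 20.1 and 68.4 CPM against 4.69, 2.61 and 8.96 CPM. For Uchl1 the other 6 cells ran from 0.24 to 105 CPM (median 38.4), so here the replication-high cells were the low ones, and its log2 ratio of 4.50 was 2.61 with a pseudocount of 10 CPM and 5.05 with 0.1 CPM.

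On the replication side Ccne2 (-3.94), Hist1h2bc (-3.92) and Btg2 (-3.72) led and Junb came last of the 10 (-2.45). The others were not cell cycle genes. Olr1, the receptor for oxidised low-density lipoprotein, was at 10.7, 0.398 and 0 CPM against 13.1, 30.1 and 124 CPM, and 4930486L24Rik at 3.35, 13.5 and 38.7 CPM against 359, 79.9 and 71.4 CPM. In Olr1 a single cell, cell 12, carried most of the signal, and in 4930486L24Rik it was cell 2. The cytokine gene Lif was at 1.47, 13.1 and 8.18 CPM against 41.0, 102 and 20.6 CPM, and Synpr, synaptoporin, at 2.1, 1.59 and 20.4 CPM against 36.3, 77.6 and 39.9 CPM. Arhgap6, a GTPase-activating protein, was at 24.5, 7.96 and 2.18 CPM against 94.3, 52.1 and 65.6 CPM, and Cd200, a surface glycoprotein, at 23.7, 20.7 and 0 CPM against 159, 61.7 and 37.8 CPM. At least 1 of the other 6 cells exceeded the replication-high mean for Hist1h2bc, Junb, Olr1, Arhgap6, Cd200, Lif and 4930486L24Rik, with highest values of 842, 976, 89.6, 132, 562, 183 and 1155 CPM. These were cell 3 for Hist1h2bc and 4930486L24Rik, cell 10 for Olr1 and Cd200, cell 11 for Arhgap6 and Lif and cell 7 for Junb, and cells 3, 10 and 11 are the 3 with high haematopoietic, endothelial and mural marker sums given above.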

How the data were processed

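The deposited table held gene counts for 12 single cultured CPCs (21729 genes, 14462 of them counted at least once). The authors aligned reads with STAR (version 2.5.2b) to mm10 and deposited raw counts per gene; the counting program, its annotation and its strand rule are not given in the sources used here. The protocol has no molecular identifiers, so intervals and the 3-count limit cover counting error only. Counts were scaled to CPM by the total of each cell (3453708 to 5690184 in the 6 chosen cells). Cells were chosen by the 2 sums named above. Genes averaging 10 CPM or more over the 6 cells were described, the 13 rule genes left out, with a pseudocount of 1 CPM in log2 ratios. Intervals on summed counts are exact Poisson intervals. The procedure was tested on simulated data. No statistical test was made.

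Named genes are members of the cell cycle lists (the largest ratios among those called, and members with a central role whether called or not) and the 10 largest ratios in each direction among called genes with at least 50 CPM in the higher set. The other members of the wider lists, Kit and Gata4 were named after their values were seen. The members and the lists were chosen with earlier results of these data known. Gene positions came from GENCODE vM21 and promoters from RefSeq. Alternatives were another scaling (median of ratios, and TMM in edgeR 4.0.16), thinning to 3453708 counts, other pseudocounts, filters and fold thresholds, medians in place of means, other rankings and leaving out each cell. Python 3.11.15, pandas 2.3.3, scipy 1.17.1 and R 4.3.3 were used.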

Additional observations from a re-analysis of the deposited data

How the results depend on the processing

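Ranking the cells by the mean of log2(CPM + 1), choosing the replication set first or ranking by the wider lists gave the same 6 cells. Under the other scalings and thinning, both counts stayed within 1.5 times of those reported, with 218 and 205 genes by median of ratios and 229 and 196 by TMM. The share of calls on the mitotic side went from 59.8% to 51.5% and 53.9%. The count of genes higher in the mitotic-high cells was 145 with a pseudocount of 10 CPM, 84 with a filter at 50 CPM, 432 at 1.5-fold and 50 at 4-fold. The count of genes higher in the replication-high cells was 274 without a filter, 81 with a filter at 50 CPM, 296 at 1.5-fold and 34 at 4-fold. Leaving out 1 cell gave 339 to 523 and 249 to 394 genes, since 2 cells overlap less easily with 3 than 3 do. Of the 253 genes, 193 remained without cell 12 and 242 without cell 2, and of the 170, 135 remained without cell 12 and 157 without cell 5. The median of the mitotic lists was 0.34 to 0.85 and that of the replication lists -0.50 to -0.11 when 1 cell was left out. That of the other lists, 0.06, was -0.0039 to 0.10. No paired analysis was possible because the cells belong to 1 labelled group. With 3 cells a set and no named culture, differences within the cells of a set and between cultures cannot be told apart, and genes under 10 CPM were not described.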

Other observations

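Gene groups with general functions held few calls. Cytosolic ribosomal proteins summed to 45956, 56850 and 46969 CPM in cells 9, 5 and 8 and to 38978, 44926 and 39074 CPM in cells 2, 1 and 12, so the sets did not overlap, although no single gene of the 80 (of 84) at 10 CPM or more was called. Their median log2 ratio was 0.26, with 70 of 80 positive, and was 0.14 without cell 5. With median-of-ratios scaling it was 0.21, and with TMM it was 0.22. Nuclear genes of the respiratory chain had a median of -0.01 over 76 genes, and -0.15 without cell 5 to 0.10 without cell 2. Proteasome subunits had a median of 0.11 over 35 genes, and -0.16 without cell 9 to 0.20 without cell 5. Cholesterol synthesis had a median of -0.36 with 15 of 19 genes negative and 0 called, and -0.58 without cell 12 to -0.22 without cell 9. Glycolysis had a median of -0.20 over 15 genes, and -0.49 without cell 8 to 0.36 without cell 12. Mitochondrially encoded mRNAs had a median of 0.06 over 8 genes, and -0.64 without cell 5 to 0.35 without cell 9. Of 59 chaperone genes 3 (5.08%) were higher in the mitotic-high and 1 (1.69%) in the replication-high cells, near the 3.04% and 2.04% of all 8324 genes. Hspa4l (80.7, 88.2 and 41.8 CPM against 30.1, 31.0 and 12.7 CPM), Dnajc13 and Dnajb2 were higher in the mitotic-high cells, and Dnajb9, a chaperone of the endoplasmic reticulum, was higher in the replication-high cells (35.8, 27.5 and 17.6 CPM in cells 9, 5 and 8 against 67.2, 53.3 and 118 CPM in cells 2, 1 and 12).

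Taken over 12353 genes, the 6 cells did not group by set. Pearson's r of log counts per 10000 was 0.874 to 0.902 between mitotic-high cells (3 pairs), 0.876 to 0.925 between replication-high cells (3 pairs) and 0.856 to 0.922 between the sets (9 pairs). Pairs of cells share no library but do share the culture conditions, and r across genes is given as a description. The medians were 0.885, 0.887 and 0.894 in the same order.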
